A study of Mus musculus with 21 samples.

Results

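The authors' deposited list of Sox7 regions holds 666 intervals, and 345 of them (51.8%, 95% interval 47.9 to 55.7) overlapped no ATAC peak in any of the 4 uninduced libraries. These 345 regions, entries of the Sox7 list where no open chromatin had been called before induction, are described here; 64 of them also had an anti-Myc ChIP peak without doxycycline. They were chosen by the absence of a peak in the uninduced ATAC lists, so that absence is not a result. The other 321 regions had a peak in at least 1 uninduced list and are called open before. After induction, 155 of the 345 (44.9%, 39.6 to 50.3) had an ATAC peak in at least 1 induced list, and 190 (55.1%, 49.7 to 60.4) had none in all 8 lists. Among 1639 regions that 1 induced ChIP list alone held, also without an uninduced ATAC peak, 28.1% had an induced ATAC peak and 71.9% had none, with shares from 2.69% to 48.7% by ChIP list.

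The study used 1 transgenic mouse embryonic stem cell line, A2lox-Sox7-Myc, made from E14Tg2a, in which doxycycline switches on Myc-tagged Sox7; all groups, the uninduced ones included, carry this transgene. They were grown as embryoid bodies, floating aggregates that form mesoderm, and collected at day 4. Induced samples had 1 µg/ml doxycycline for 24 h, and uninduced samples had none. ATAC-seq, which marks open chromatin by transposase insertion, gave 2 induced and 2 uninduced libraries of CPC, labelled PDGFRalpha+FLK1+ and named cardiac progenitors by the study, and 2 induced and 2 uninduced libraries of EPC, labelled PDGFRalpha-FLK1+ and named endothelial progenitors. The growth protocol in the labels names another sort, for PDGFRα+FLK1− cells, so the gate rests on the sample characteristics alone. ChIP-seq with an anti-Myc antibody, done on cells without a sort in their labels, gave 4 induced and 4 uninduced libraries and 1 input. Sox7 is thus forced in all cells of the aggregate that respond to the drug.

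Sox7 belongs to the SOXF group of transcription factors, with Sox17 and Sox18. SOX proteins hold an HMG box that binds short AT-rich motifs in the minor groove and bends the DNA, and several of them can bind sites wrapped in nucleosomes. SOXF proteins act in the early endothelium and in extraembryonic endoderm, the cell layers that make the yolk sac and its basement membranes.

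Every list is a set of peaks with a score from the authors' caller, which rises as the p-value of a peak falls. The ATAC lists held 23068 to 30732 peaks with scores from 50.0, the induced ChIP lists 1061 to 2807, and the uninduced ChIP lists 772 to 1059, with ChIP scores from about 40, or from 50.1 in uninduced list 4. No list holds read counts, so depth is unknown and a missing peak can be a peak below the caller's limit. Both Kdr, which encodes FLK1, and Pdgfra had an ATAC peak inside the gene in all 8 lists, so presence of a peak there does not separate CPC from EPC. Mean peaks per list were 1.25 in CPC and 2.25 in EPC for Kdr, and 1.25 in both for Pdgfra. The endothelial genes Cdh5, Tek and Tal1 had 0.750, 1.25 and 2.00 in CPC and 1.75, 2.25 and 3.00 in EPC. The cardiac genes Gata4 and Hand2 had 2.75 and 1.75 in CPC and 2.00 and 1.25 in EPC, while cardiac Tbx20 had 1.25 in CPC and 2.00 in EPC. Positions are on GRCm38.

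Few of the 345 regions reached a promoter. In the RefSeq promoter table used here, which gives 250 bases before to 50 bases after a gene's start, 5 of the 345 regions overlapped a window, against 38 of the 321 regions open before. Both counts cover the table's windows only. All 5 windows are printed 5′ to 3′ on the gene's strand from RefSeq (GRCm38.p6), because they are the stretches at these regions whose sequence could be read here. Capitals mark matches, on either strand, to the SOX letters AACAAT, to ACAATG and to ACAAAG. The first and second motif can overlap by 5 letters and then count as 2 matches. Ppp1r16b encodes a regulatory subunit of protein phosphatase 1 that is expressed in endothelial cells, Gm29958 is annotated as protein-coding, and Il1bos, Gm46124 and Gm52385 are long noncoding RNAs.
Ppp1r16b, chr2:158666483-158666782, plus strand: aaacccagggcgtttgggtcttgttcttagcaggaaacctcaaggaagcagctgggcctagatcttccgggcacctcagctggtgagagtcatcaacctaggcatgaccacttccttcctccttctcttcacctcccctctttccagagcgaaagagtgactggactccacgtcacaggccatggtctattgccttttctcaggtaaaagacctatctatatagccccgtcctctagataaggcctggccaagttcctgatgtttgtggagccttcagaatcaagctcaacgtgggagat
Gm46124, chr9:84024739-84025038, minus strand: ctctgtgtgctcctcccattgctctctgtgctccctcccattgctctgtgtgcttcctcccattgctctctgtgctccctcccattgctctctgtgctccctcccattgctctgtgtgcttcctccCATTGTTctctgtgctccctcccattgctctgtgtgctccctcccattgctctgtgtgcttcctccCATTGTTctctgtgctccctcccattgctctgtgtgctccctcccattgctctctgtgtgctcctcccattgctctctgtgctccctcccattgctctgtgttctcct
Gm29958, chr11:63618951-63619250, plus strand: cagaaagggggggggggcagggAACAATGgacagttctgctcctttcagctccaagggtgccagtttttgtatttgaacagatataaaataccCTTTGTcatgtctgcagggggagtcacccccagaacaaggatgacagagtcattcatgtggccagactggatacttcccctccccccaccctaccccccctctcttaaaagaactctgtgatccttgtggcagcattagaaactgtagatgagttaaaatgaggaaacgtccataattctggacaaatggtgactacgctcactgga
Il1bos, chr2:129369652-129369951, plus strand: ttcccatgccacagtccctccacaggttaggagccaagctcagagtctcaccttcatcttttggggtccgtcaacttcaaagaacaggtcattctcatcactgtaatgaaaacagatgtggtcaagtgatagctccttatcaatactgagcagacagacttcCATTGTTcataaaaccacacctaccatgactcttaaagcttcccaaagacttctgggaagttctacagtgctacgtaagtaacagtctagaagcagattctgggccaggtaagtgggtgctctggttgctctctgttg
Gm52385, chr19:57926060-57926359, minus strand: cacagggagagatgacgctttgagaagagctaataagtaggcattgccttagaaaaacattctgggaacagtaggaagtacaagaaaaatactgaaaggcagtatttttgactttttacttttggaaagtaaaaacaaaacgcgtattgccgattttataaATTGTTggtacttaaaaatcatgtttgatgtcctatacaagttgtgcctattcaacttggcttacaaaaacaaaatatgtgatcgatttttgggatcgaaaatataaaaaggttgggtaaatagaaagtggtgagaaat

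The Ppp1r16b window, of which 269 bases lie in the region of the Sox7 list, held 0 SOX matches. The region took an ATAC peak in 3 induced lists and lay 99 bp from an uninduced ATAC peak. The Gm46124 window held 4 SOX matches, in 2 copies of the same 7-letter run, the Gm29958 window 3 and the Il1bos window 2. Each of these 3 regions took a peak in 1 induced list, always in EPC. The Gm52385 window, of which 150 bases lie in the region of the Sox7 list, held 1 SOX match. Its region had no ATAC peak, and it had an anti-Myc ChIP peak without doxycycline, with a score of 81.6 in uninduced list 3. Of all 32817 windows in the table, 33.2% held a SOX match, 18.6% a GATA match (AGATAA or TGATAA), 23.8% an ETS match (GGAAGT), 14.7% a TEAD match (GGAATG) and 7.81% an AP-1 match (TGANTCA), on either strand. Among the 5 windows, GATA letters were in those of Ppp1r16b and Il1bos, ETS letters in all but that of Gm46124, and TEAD and AP-1 letters in none. These letters describe the windows and do not locate bound sites.

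The promoter table used here holds 0 windows on chromosome 18, where 13 of the 345 regions and 17 of the 321 open before lie. The 345 regions lay mostly away from gene ends. Within 1 kb of a protein-coding gene's boundary lay 16 (4.64%, 2.67 to 7.42), against 54 of 321 regions open before (16.8%, 12.9 to 21.4). By class this was 7 of 155 with an induced ATAC peak (4.52%) and 9 of 190 with none (4.74%). A region inside a gene overlaps its body; there were 75 of these with an induced peak (48.4%) and 80 with none (42.1%), against 138 open before (43.0%). No protein-coding gene lay within 50 kb for 33 (21.3%) and 38 (20.0%) regions of these classes. The gap to the nearest uninduced ATAC peak had a median of 15571 bp where a peak appeared after induction and of 20596 bp where none did, and 19 of the 345 regions lay within 1 kb of such a peak.

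At the edge of the rule, the nearest region missed an uninduced ATAC peak by 40 bp; it lies 0.572 kb from Cdca7, a target of Myc. The next lay 63 bp away (chr1:133492062-133492979, no gene within 50 kb) and 70 bp away, 6.38 kb from the zinc-finger gene Zfp984. Just outside, regions near Pik3c2a, inside Relt and inside 1700001C19Rik overlapped an uninduced peak by 1, 6 and 16 bp.

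In single induced libraries, an ATAC peak was present at 24.9% (95% interval 20.5 to 29.8) and 22.3% (18.0 to 27.1) of the 345 regions in CPC, and at 33.3% (28.4 to 38.6) and 36.5% (31.4 to 41.8) in EPC. Both CPC libraries lay below both EPC libraries, and the means were 23.6% ± 1.84 in CPC and 34.9% ± 2.25 in EPC (SD, n = 2 each). The mean difference of -11.3 percentage points had an exact permutation p of 0.333, two-sided, the smallest that 2 against 2 allows (adjusted p = 0.375 over 6 tests). It was -7.46 percentage points without induced ChIP list 1 and -17.0 without list 2. The induced ATAC lists were of similar length, 29291 and 27979 peaks in CPC and 28915 and 30732 in EPC; with every ATAC list reduced to its 23068 highest-scoring peaks the difference was -10.2 percentage points. The labels do not say whether replicates came from separate cultures, and the p-values given here measure the spread between libraries, which may be technical.

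**Figure D1:**
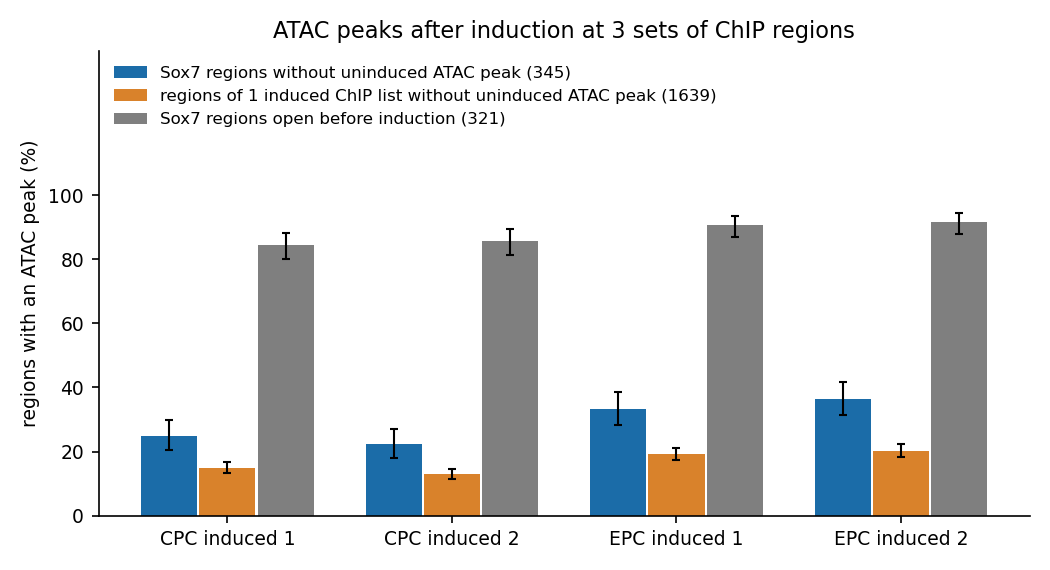
Share of regions with an ATAC peak (y axis, %) in each induced library (x axis) for the 345 Sox7 regions without uninduced ATAC peak, for 1639 regions of a single induced ChIP list without uninduced ATAC peak, and for the 321 Sox7 regions open before. Bars are shares of regions and error bars exact 95% intervals; the 345 regions reach 22.3% to 36.5%, the single-list regions 12.9% to 20.3% and the regions open before 84.4% to 91.6%.

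By cell type, 88 of the 345 regions (25.5%) had an induced peak in both CPC and EPC, 51 (14.8%) in EPC alone and 16 (4.64%) in CPC alone. The single-list regions had 12.9%, 10.5% and 4.76% in these classes, and the regions open before 86.9%, 7.17% and 2.49%, so EPC alone was also more frequent than CPC alone in both other sets. A region with a CPC peak had an EPC peak too in 88 of 104 cases (84.6%, 76.2 to 90.9). A region with an EPC peak had a CPC peak in 88 of 139 (63.3%, 54.7 to 71.3). Both shares count the same 88 regions, so their order follows from the totals of 104 and 139. Peaks in both libraries of a cell type numbered 59 in CPC (17.1% of the 345, against 10.3% of the single-list regions) and 102 in EPC (29.6%, against 16.1%). That is 56.7% of the regions with any CPC peak and 73.4% of those with any EPC peak. Of the 1639 single-list regions, 168 had both CPC peaks and 264 both EPC peaks. A peak was present there in both cell types at 211, in CPC alone at 78 and in EPC alone at 172. The share with both peaks among those with any was not computed for that set, so the contrast is not particular to the 345 regions. A peak in all 4 induced lists was present at 46 regions (13.3%, against 6.96%), in 3 lists at 35, in 2 at 41 and in 1 at 33. The authors' deposited CPC list of induced-only ATAC peaks overlapped 59 of the 59 regions with both CPC peaks, and their EPC list 98 of the 102 with both EPC peaks. By their names, those lists also take induced peaks without an uninduced one, so this overlap was largely fixed in advance.

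The same count can be turned round. Of the 345 regions without an uninduced peak, 155 (44.9%) had an induced one, whereas of the 201 Sox7 regions without an induced peak, 11 (5.47%, 2.76 to 9.58) had an uninduced one. A peak in all 4 induced and no uninduced list was found at 46 Sox7 regions, and a peak in all 4 uninduced and no induced list at 0 of 666, with a 95% interval up to 0.552%. Uninduced ATAC lists were shorter than the induced ones in each cell type, 27540 and 23068 peaks in CPC and 27934 and 23694 in EPC, so the count was repeated with equal lengths, for the reverse count after the values were seen. With every list at 23068 peaks, 372 regions had no uninduced peak, of which 150 (40.3%) had an induced one, and 236 had no induced peak, of which 14 (5.93%) had an uninduced one. A peak in all 4 induced and no uninduced list was then found at 41 regions, and the reverse at 0. Every region of the Sox7 list rests on ChIP peaks of induced cells, and equal list lengths do not remove that choice. The reverse share was not computed for regions outside the Sox7 list, so these counts are a description and the part of the choice in them was not tested.

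Of the 46 regions with a peak in all 4 induced ATAC lists, 21 also had a peak in at least 3 of the 4 induced ChIP lists, and none of these 21 had an uninduced ChIP peak. The region with the highest mean ChIP score among them had no gene within 50 kb (chr13:42412375-42413360); its ChIP scores were 147, 168, 486 and 74.7 in lists 1 to 4, and its ATAC scores 263 and 416 in CPC and 117 and 154 in EPC. Scores are the caller's own values, and the part of library depth in differences of score between lists was not tested. Among the 21 were regions in or near 2 SOXD genes, partners and competitors of other SOX proteins on DNA. Inside Sox5 (chr6:144454092-144455071), ChIP scores were 141, 154 and 254 in lists 1 to 3, with no peak in list 4, and ATAC scores 349.8 and 339.9 in CPC and 233 and 158 in EPC. These ATAC peaks scored above 75.1% and 76.4% of all peaks in the CPC lists and above 62.1% and 51.8% in the EPC lists, and the nearest uninduced ATAC peak lay 92599 bp away.

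Inside Sox13 (chr1:133397395-133398313), ChIP scores were 57.4, 50.1, 134 and 81.2 and ATAC scores 129 and 138 in CPC and 106 and 183 in EPC. These ATAC peaks stood in the middle of their lists, above 46.5% and 50.0% of the CPC peaks and above 37.9% and 56.0% of the EPC peaks. Another region of Sox13 was open before.

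Some of the 21 had peaks that stood high in the lists of both cell types. Inside Dock2, a Rac activator of blood cells (chr11:34738644-34739606), ATAC scores were 283 and 318 in CPC and 570.0 and 587 in EPC, above 69.8% and 74.9% of the CPC peaks and above 82.2% and 82.4% of the EPC peaks. At 23.7 kb from Peg10, an imprinted retrotransposon-derived gene of the placenta (chr6:4784203-4785150), they were 356 and 273 in CPC and 582 and 643 in EPC, above 75.4% and 71.0% and above 82.5% and 84.1% of the peaks. Both stood higher in both EPC lists than in both CPC lists. The order was the reverse 21.7 kb from Ssbp2, which encodes a single-stranded DNA-binding protein (chr13:91437522-91438622), where scores were 576 and 512 in CPC, above 84.9% and 84.7% of the peaks, and 193 and 326 in EPC, above 57.4% and 70.4%.

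Others stood lower in both CPC lists than in both EPC lists. Inside Ptpre, a receptor-type tyrosine phosphatase gene (chr7:135602565-135603587), ATAC scores were 66.5 and 50.5 in CPC and 146 and 83.0 in EPC, above 17.6% and 0.7% of the CPC peaks and above 48.9% and 28.0% of the EPC peaks. Inside Kif28, a kinesin gene (chr1:179722746-179723700), they were 75.2 and 76.6 in CPC and 202 and 175 in EPC, with ChIP scores of 107, 143, 349.5 and 171. The region 16.5 kb from Akap12, an anchoring protein of protein kinase A (chr10:4248838-4249779), had 144 and 81.1 in CPC and 298 and 247 in EPC. Others of the 21 lay inside Myof, Ippk and Galnt17, near Hsf2 (1.8 kb), Msantd4 (4.03 kb), Vsig10 (14.2 kb) and Spink13 (38.9 kb), and at 4 more places without a gene within 50 kb.

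Other leading regions had peaks in both cell types but missed 1 CPC library. Inside Ets1, an ETS-family regulator of endothelial genes (chr9:32692119-32692987), ChIP scores were 165, 118 and 273 in lists 1 to 3 and ATAC scores 65.6 in CPC replicate 2 and 129 and 159 in EPC. Inside Col4a1, a chain of the collagen IV of basement membranes (chr8:11308310-11309336), ChIP scores were 126, 98.4, 435 and 53.4 and ATAC scores 70.4 in CPC replicate 1 and 99.1 and 126 in EPC. Both lay within 3 kb of an uninduced ATAC peak, at 2488 and 2918 bp.

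The 51 regions with a peak in EPC alone included the region with the highest ChIP score of all 345. It lies on chromosome 1 with no gene within 50 kb (chr1:35115257-35116315) and had ChIP scores of 191, 216, 1034 and 161, with ATAC scores of 110.3 and 133 in EPC and no CPC peak. Inside Pdgfb, which encodes a growth factor that endothelial cells use to recruit mural cells (chr15:80004325-80005297), ChIP scores were 130.1, 42.9 and 296 in lists 1 to 3 and EPC scores 277 and 107. Inside Mcc, EPC scores were 227 and 95.8. The highest EPC scores of this class belonged to the region 63 bp from an uninduced peak named above, with 482 and 494. Strong ChIP did not go with a strong ATAC peak at each site: inside Ankrd29, with ChIP scores of 238, 109, 432 and 83.0, and inside Cdrt4, with 169, 204, 199 and 155, a peak appeared only in EPC replicate 2, with ATAC scores of 77.6 and 57.3. Regions inside Tada2a and 5.33 kb from Tns4 also had a peak in 1 EPC library each, with scores of 67.8 and 60.5.

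Among the 16 regions with a peak in CPC alone, the highest ATAC score was 275 in CPC replicate 1, with 135 in replicate 2, at a region 4.75 kb from Mdfic, a regulator of transcription-factor localisation (chr6:15715174-15715818), whose ChIP scores were 52.4, 257 and 50.5 in lists 1, 3 and 4. Inside Tgm3, a transglutaminase gene, CPC scores were 100.0 and 187, inside Exoc4, of the exocyst complex, 95.3 and 63.5, and inside Itpkb, an inositol trisphosphate kinase gene, 83.9 and 75.5. Inside Pak7, a kinase gene with the highest mean ChIP score of this class, a peak of 86.7 was present in CPC replicate 2 alone, and inside Sgk1, another kinase gene, a peak of 97.3 in replicate 1 alone.

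The 190 regions without an ATAC peak in all 8 lists included 36 with a peak in at least 3 induced ChIP lists. An uninduced ChIP peak was present at 62 of the 190. Whether poor read mapping adds to this class was not tested. The leading region lay 9.88 kb from Col6a3, a collagen VI chain (chr1:90755947-90756984), with ChIP scores of 149, 205, 535 and 68.7. Inside Fam155a, a subunit gene of the NALCN channel complex (chr8:9296449-9297913), they were 236, 182, 392 and 66.2, and inside Pax7, a paired-box regulator of muscle and neural precursors (chr4:139803639-139804649), 81.7, 123, 227 and 181. Inside Ano2, a chloride channel gene, scores were 149, 98.0, 275 and 64.7, and 21.2 kb from the adhesion gene Cadm1 they were 81.8, 82.3, 207 and 65.4. None of these 5 had an uninduced ChIP peak. The other leading regions lay inside Prdm16, near Ctsd (16.9 kb) and Pard3 (34.2 kb), and at 2 places without a gene within 50 kb. The Pax7 region lay 4501 bp from the nearest uninduced ATAC peak and the Col6a3 and Fam155a regions 18408 and 59724 bp.

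The 2 classes differed in which induced ChIP lists supported them. A peak in at least 3 of the 4 lists was present at 72 of the 155 regions with an induced ATAC peak (46.5%, 38.4 to 54.6) and at 36 of the 190 with none (18.9%, 13.6 to 25.3). List 1 held 72.3% of the regions with an ATAC peak and 29.5% of those with none, list 2 held 63.2% and 83.2%, list 3 held 98.7% and 81.6%, and list 4 held 25.2% and 30.0%. So lists 1 and 3 held more of the regions that took an ATAC peak and list 2 more of those that did not. List 4 differed least, by -4.84 percentage points (intervals 18.5 to 32.8 and 23.6 to 37.1). Each list is 1 library, and the intervals cover counting error over regions only, so they do not decide which lists differ. These shares are not separate results. The Sox7 list holds no region on lists 1 and 2 alone or on lists 3 and 4 alone. A region of 2 lists therefore has either list 1 or list 2, and either list 3 or list 4. Such regions were 83 of the 155 and 154 of the 190. Regions that rested on lists 2 and 3 alone were 31 of 155 (20.0%) against 100 of 190 (52.6%), and those on lists 1 and 3 alone 50 (32.3%) against 23 (12.1%). Read the other way, an induced ATAC peak was present at 50 of 73 regions of lists 1 and 3 (68.5%, 56.6 to 78.9), at 31 of 131 of lists 2 and 3 (23.7%, 16.7 to 31.9) and at 2 of 29 of lists 2 and 4 (6.90%, 0.846 to 22.8).

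**Figure D2:**
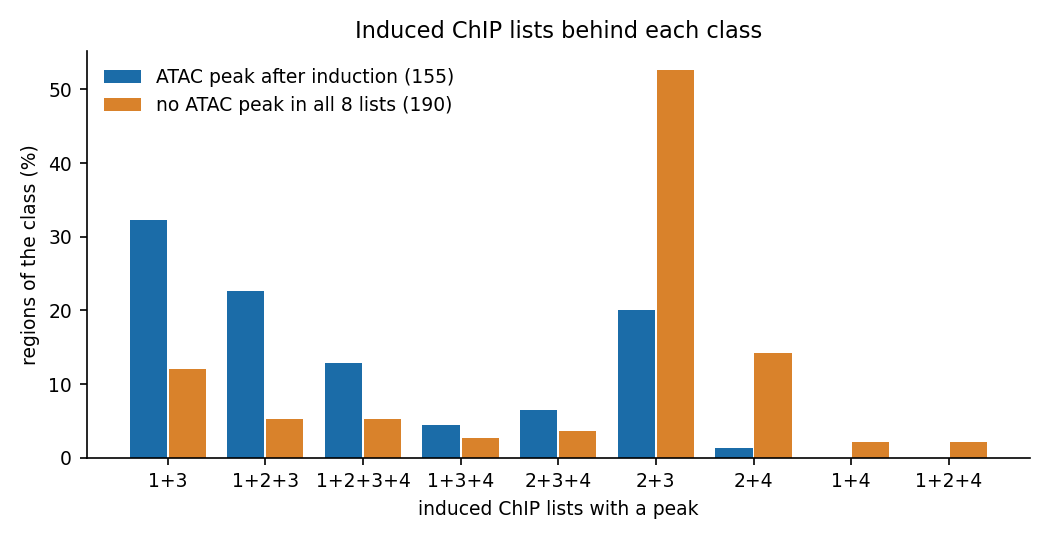
Share of each class (y axis, %) by the set of induced ChIP lists with a peak at the region (x axis), for the 155 regions with an ATAC peak after induction and the 190 with none in all 8 lists. Lists 2 and 3 alone account for 20.0% of the first class and 52.6% of the second, and lists 1 and 3 alone for 32.3% and 12.1%.

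With induced ChIP list 2 left out and 2 of the other 3 lists required, 185 regions remained in the rule, 122 with an induced ATAC peak and 63 with none, so the split of the 345 rests on that list. Without list 3 there were 141 regions, 74 and 67. The deposited Sox7 list itself holds no region that rests on lists 1 and 2 alone or on lists 3 and 4 alone, although 19 and 46 such ChIP regions without an uninduced or input peak exist, so these pairs cannot be compared.

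ChIP peaks scored higher at regions with an induced ATAC peak in list 3 above all. Median scores at regions with and without an induced ATAC peak were 56.6 and 55.8 in list 1, 59.6 and 61.7 in list 2, 101 and 58.3 in list 3, and 55.1 and 47.3 in list 4. The first was higher in 3 of 4 lists and lower in list 2. The mean difference was 12.2 score units, with a two-sided exact sign-flip permutation p of 0.375 over the 4 libraries (adjusted p = 0.375), where 0.125 is the smallest possible. Single lists moved this value: it was 3.77 without list 3 (exact permutation p = 0.500), 6.95 without list 2 (p = 0.750) and 19.2 without list 1 (p = 0.500), and 7.97 with at least 3 lists required. Within list 3, 78 of 97 regions with a score of 100 or more took an ATAC peak (80.4%, 71.1 to 87.8), against 75 of 211 below 100 (35.5%, 29.1 to 42.4) and 2 of 37 without a list 3 peak (5.41%, 0.661 to 18.2). This list and cut were not among the planned comparisons, and 100 lies beside the median of 101 given above. The other lists were not split in this way, so these shares only describe list 3. Over the number of lists, the share was 35.0% with 2, 66.7% with 3 and 66.7% with 4.

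**Figure D3:**
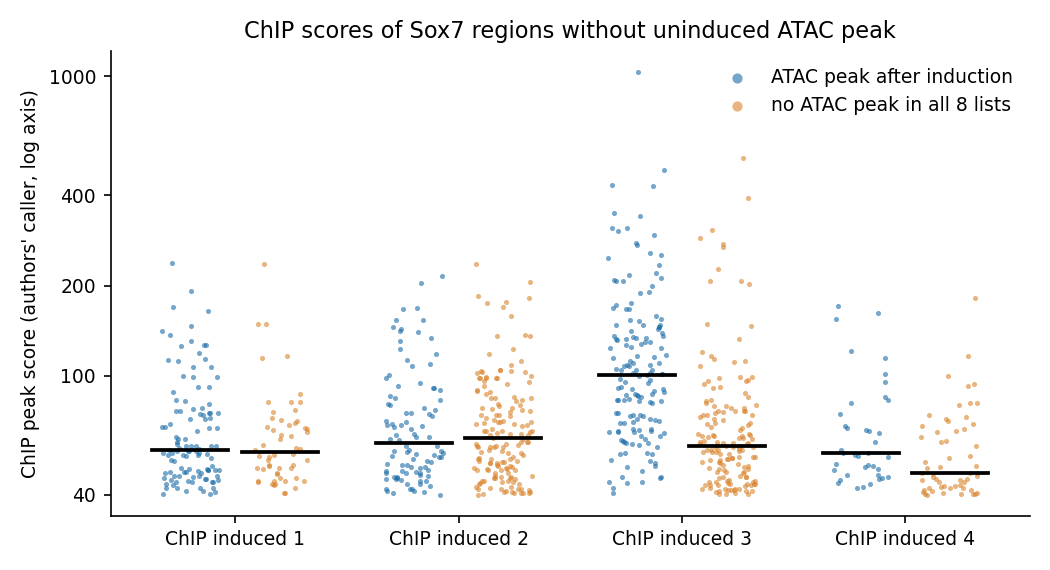
ChIP score (y axis, log scale) in each induced ChIP list (x axis) of the regions with an ATAC peak after induction and of those with none in all 8 lists; each point is a region with a peak in that list and each black line a median. The medians are close in lists 1, 2 and 4 and are 101 and 58.3 in list 3.

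Regions without any ATAC peak more often had an anti-Myc ChIP peak without doxycycline. An uninduced ChIP peak was present at 2 of 155 regions with an induced ATAC peak (1.29%, 0.157 to 4.58) and at 62 of 190 with none (32.6%, 26.0 to 39.8), against 9.03% of the 321 regions open before. By library, the shares were 0.645% and 7.89% in uninduced list 1, 0% and 10.5% in list 2, and 0.645% and 16.3% in list 3. No Sox7 region overlapped uninduced list 4, which shared 585 of its 772 peak starts with list 2 and was not counted as a further library. The mean difference over lists 1 to 3 was -11.1 percentage points, with an exact sign-flip permutation p of 0.250, the smallest for 3 libraries (adjusted p = 0.375), a comparison added after these values were seen. Of the 64 regions with an uninduced ChIP peak, 2 (3.12%, 0.381 to 10.8) took an ATAC peak, and of the 281 without, 153 did (54.4%, 48.4 to 60.4). Among those 281, the share was 71 of 94 with at least 3 induced ChIP lists (75.5%, 65.6 to 83.8) and 82 of 187 with 2 (43.9%, 36.6 to 51.3).

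The 345 regions are not fully independent: 18 lay within 50 kb of another, and 4 shared an induced ChIP peak with another.

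The regions were next set beside the 1639 regions that only 1 induced ChIP list held, which overlap no uninduced ATAC peak and, unlike 64 of the 345, no uninduced ChIP peak. The 345 regions had an induced ATAC peak more often in each library, 24.9% against 15.0% and 22.3% against 12.9% in CPC, and 33.3% against 19.2% and 36.5% against 20.3% in EPC. The mean difference was 12.4 percentage points (two-sided exact sign-flip permutation p = 0.125 over 4 ATAC libraries, the smallest possible, adjusted p = 0.250). It was 6.32 without induced ChIP list 1, 19.8 without list 2, 28.4 without list 3, 25.5 with at least 3 induced ChIP lists required and 18.9 with no uninduced ChIP peak allowed. The difference also depended on which ChIP list the single-list regions came from. An induced ATAC peak was present at 37 of 271 regions of list 1 alone (13.7%), 13 of 484 of list 2 alone (2.69%), 402 of 825 of list 3 alone (48.7%) and 9 of 59 of list 4 alone (15.3%). Against the regions of list 3 alone, a comparison made after the values were seen, the mean difference was -0.482 percentage points (exact permutation p = 0.500), so the 345 regions did not exceed them. With the 64 regions that had an uninduced ChIP peak left out, also after the values were seen, it was 6.01 percentage points (exact permutation p = 0.125, the smallest possible).

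Only ATAC peaks that overlap a region were counted, so a short distance between their centres follows in part from that rule. The distance between the centres of the ATAC peak and the Sox7 region had a median of 69.8 and 71.5 bp in CPC and 65.5 and 76.0 bp in EPC, and 385 of 404 peaks lay within 250 bp. At regions open before, the median distance was 93.5 and 92.0 bp in CPC and 86.5 and 99.2 bp in EPC. The peaks at the 345 regions were narrower, with median widths of 763, 756, 764 and 818 bp, against 1024, 1003, 1081 and 1090 bp at regions open before, in the same order of libraries. Wider peaks can have centres farther from a site, and the part of width in the distance was not tested.

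**Figure D4:**
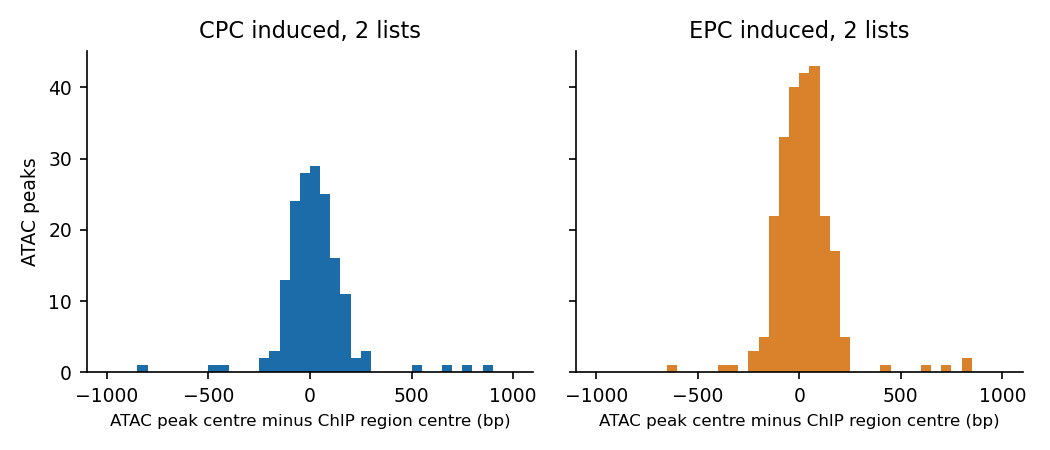
Number of ATAC peaks (y axis) by the distance of the peak centre from the centre of the Sox7 region (x axis, bp, bins of 50 bp), for the induced CPC and EPC lists at regions without uninduced ATAC peak. Only overlapping peaks were counted; 385 of 404 lie within 250 bp, and 1 peak lies beyond the axis.

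The ATAC peaks at the 345 regions stood on average below the middle of their lists. Median scores were 106 and 86.9 in CPC and 105 and 121 in EPC, and on average these peaks scored above 40.8%, 34.9%, 39.1% and 42.6% of all peaks in their lists. Other peaks of the same lists that overlap no uninduced peak had medians of 68.2, 67.9, 68.6 and 70.2, so the difference was positive in 4 of 4 libraries, with a mean of 35.9 score units (two-sided exact sign-flip permutation p = 0.125, the smallest possible, adjusted p = 0.250). The 2 sets were not filtered alike. The other peaks had to miss every uninduced peak themselves, whereas at the 345 regions only the region had to. Where several peaks overlapped a region, the highest score was kept, while each other peak counted singly. With regions over 1 kb from uninduced ATAC peaks alone, the mean difference was 35.6. Peaks at Sox7 regions open before had medians of 261 and 224 in CPC and 379 and 410 in EPC; since the rule divides the 2 sets by their ATAC peaks before induction, this is a description.

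**Figure D5:**
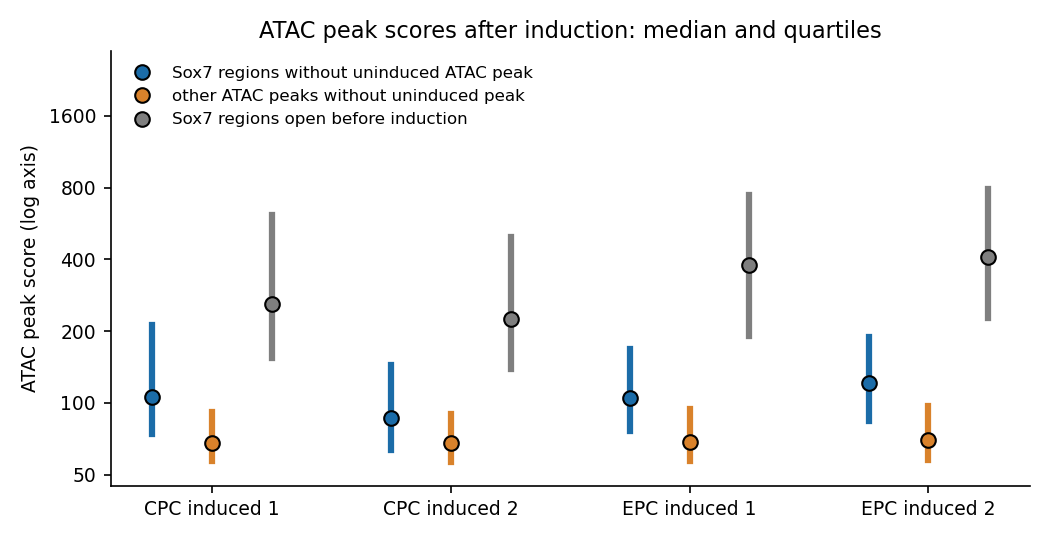
ATAC peak score (y axis, log scale) in each induced library (x axis) at Sox7 regions without uninduced ATAC peak, at other ATAC peaks without uninduced peak and at Sox7 regions open before; points are medians and bars run between the quartiles. Medians are 86.9 to 121 in the first set, 67.9 to 70.2 in the second and 224 to 410 in the third.

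Overlap with the authors' deposited list of Sox7 and Gata4 regions, named for Gata4, a zinc-finger regulator of heart and endoderm, was rare. Of the 345 regions, 16 were in that list (4.64%, 2.67 to 7.42), against 101 of the 321 open before (31.5%). By class these were 10 of 155 with an induced ATAC peak (6.45%, 3.14 to 11.5) and 6 of 190 with none (3.16%, 1.17 to 6.75), intervals that overlap. The 10 lay inside Auts2, Chst15, Myof, Ehd1, Exoc4 and Zfp609, 0.572 kb from Cdca7, and at 3 places without a gene within 50 kb. The highest list 3 ChIP score among them, 342, was at chr10:21745758-21746678, with ATAC scores of 282 and 114 in CPC and 93.4 in EPC replicate 2. Inside Myof, the membrane-repair protein myoferlin, a peak was present in all 4 induced lists. The 6 without an ATAC peak lay inside Tiam2, near Ccdc113, Ift81, Slc7a14 and Lamb1, and at 1 place without a gene within 50 kb; those at Ccdc113, Ift81, Tiam2 and Slc7a14 also had an uninduced ChIP peak.

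By gene, the 345 regions were assigned to 270 of 21900 protein-coding genes (1.23%), each inside the gene or, failing that, nearest within 50 kb. Of 25 genes of endoderm and basement membrane, 6 had such a region (24.0%), among them Col4a1, Lamb1, Lamc1, Sparc and Gata6. The gene lists were chosen with earlier results of these data known, so this share is a description and not a test of enrichment. All 6 had a region that took an induced ATAC peak, and 2 of the 6 remained when the distance was limited to 10 kb. Of all 270 genes, 123 had a region that took an induced ATAC peak, and 204 were assigned a region at 10 kb. Near Lamc1, a laminin gamma chain (25.6 kb, chr1:153358382-153359246), ATAC scores were 246 and 131 in CPC and 251 and 236 in EPC. Near Lamb1, a laminin beta chain (17.8 kb, chr12:31246356-31247381), they were 209 and 192 in EPC, with no CPC peak, and a second region 42.9 kb away had no ATAC peak. Near Sparc, a collagen-binding matrix protein (10.1 kb), and near Gata6, an endoderm regulator (14.3 kb), a peak was present in 1 EPC library each, with scores of 71.4 and 87.8. In the same list, Hspg2 and Ttr had a region open before.

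Other lists held at most 2 genes with a region, and each such share rests on 1 or 2 genes. The share over all protein-coding genes was 1.23%. Of 19 SOX genes, Sox5 and Sox13 had a region (10.5%). Of 30 endothelial genes, Ets1 alone had one (3.33%), while Egfl7, Erg, Ets1 and Vwf had a region open before. Of 21 blood genes, Cd44, a hyaluronan receptor gene, had a region 1.5 kb away without an ATAC peak and with an uninduced ChIP peak (4.76%). Of 11 neural genes, Pax7 had one without an ATAC peak (9.09%). The lists of 25 cardiac, 17 early mesoderm, 18 Hippo pathway, 16 Notch pathway, 22 VEGF and guidance and 14 pluripotency genes had 0. With a share of 1.23% over all genes, 0 in lists this short does not mark an absence. These are counts of nearest genes, and whether a region acts on the gene it is named for was not measured here.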

How the data were processed

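The authors deposited 1 peak list per library with a score per peak, −10 × log10(p) by the convention of MACS 1.4, and lists they derived, among them the Sox7 list and the Sox7 and Gata4 list, which give positions alone. Per the submitters' processing notes, the build is GRCm38 and MACS 1.4, Bowtie2, SAMtools, bedtools and Trimmomatic were among the tools, with no role given. How the derived lists were made is not given in the sources used here. RNA-seq samples were not analysed here.

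A region overlapped a peak where they shared 1 bp or more; the highest score was kept where several did. Regions of single induced ChIP lists were ChIP peaks merged over all libraries with a peak in 1 induced list, none in the uninduced or input lists and none in uninduced ATAC lists. Genes were RefSeq protein-coding genes of GRCm38.p6. Regions named in the text had a peak in all 4 induced ATAC lists and at least 3 induced ChIP lists, were among up to 10 with the highest mean ChIP score of each class (at least 3 lists), lay in the Sox7 and Gata4 list, were assigned to a listed gene, or stood at the edge of the rule; the 5 promoter regions were added after the data were seen. The members and gene lists were chosen with earlier results of these data known. Exact permutation tests over libraries were two-sided, with Benjamini-Hochberg adjustment over 6 tests. The 6 include the comparison of ATAC scores with regions open before, which is a description because the rule divides those sets. The adjusted p-values depend on its place among the 6. Intervals are exact (Clopper-Pearson) at 95% and cover counting error only. The code was tested on simulated lists. Uninduced ChIP lists 2 and 4 share most starts and were treated as 1 library in the test of uninduced ChIP peaks. In the search for outlying libraries by Dixon's test they were counted separately. Alternatives were a score of 100 or more, lists of equal length (23068 peaks), overlap of 50% of the shorter interval, a distance of over 1 kb from uninduced peaks, no uninduced ChIP peak, at least 3 ChIP lists, and leaving out each library. Python 3.11.15, numpy 2.4.6, pandas 2.3.3 and scipy 1.17.1 were used. No genome of the build was used, so sequences came from the RefSeq promoter table alone. The values of 1 region that met these rules are not reported here.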

Additional observations from a re-analysis of the deposited data

Results flagged for a closer look

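The median ChIP score of regions with an induced ATAC peak was 101 in induced list 3, against 55.1 to 59.6 in the other 3 induced lists; the gap between list 3 and the nearest list was 0.902 of the whole range, above the critical value of Dixon's test for 4 values. Chance gives such a gap in about 1 of 20 groups, and 9 groups were examined. These groups are not independent, because some hold the differences of others, and the uninduced ones count list 4 as a separate library. List 3 is also the longest, with 2807 peaks against 1061 to 1851, and the part of its length in the score was not tested.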

How the results depend on the processing

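Of 228 recomputed values, 207 kept their direction and stayed within 1.5 times of the reported count or on the same side of the threshold, 20 counts moved further and 1 difference reversed. No test could pass 0.05 at these numbers of libraries, so p-values say nothing of stability. With at least 3 induced ChIP lists required, there were 108 regions, 72 with an induced ATAC peak and 36 with none, 28 with both CPC peaks, 43 with both EPC peaks, 21 with all 4, and 5 in the Sox7 and Gata4 list. That setting and those that leave out a ChIP list test fewer regions. With an ATAC score of 100 or more required in every list, the Sox7 and Gata4 list held 30 of the 424 regions then in the rule. Leaving out each library in turn gave 141 (without induced ChIP list 3) to 388 regions (without uninduced EPC replicate 1), 74 to 195 with an induced peak, 63 to 204 with none, 28 to 86 with both CPC peaks (1 library in place of 2 where a CPC library was left out), 43 to 135 with both EPC peaks, 21 to 63 with all 4, and 5 to 22 in the Sox7 and Gata4 list. The comparison with single-list regions reversed against list 3 alone (-0.482 percentage points, exact permutation p = 0.500; 0.125 to 0.250 over its other alternatives), and was 6.01 there without the regions that had an uninduced ChIP peak, both settings chosen after seeing the data. Endoderm and basement membrane genes with a region numbered 2 at 10 kb in place of 6 at 50 kb. With the replicate block, the CPC minus EPC difference was -11.3 percentage points (exact sign-flip permutation p = 0.500, the smallest for 2 pairs), and the shared numbers are not stated to pair the libraries. Depth is unknown, so a region without a peak may fall below a caller's limit rather than be closed.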
